A study of Mus musculus with 9 samples.

Results

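Interferon-inducible genes of cell-autonomous immunity, 10 of the 26202 in the deposited table, are described here across all 9 libraries of the series. They are the guanylate-binding protein genes Gbp2, Gbp2b, Gbp3 and Gbp7, the immunity-related GTPase genes Irgm1, Irgm2, Igtp and Iigp1, and Nmi and Ifi35, which encode partner proteins that are not GTPases. The genes were found by symbol, and the list was selected on their levels in these same libraries. Their fold changes and calls between the groups are therefore a description and support nothing by themselves. Family genes outside the list may have been left out because of their values. All 10 reached a mean of 1 CPM (reads scaled to a common library size, with the TMM correction) over the 9 libraries, the level from which genes were tested.

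The libraries come from ATDC5, an established mouse chondrogenic line used as a culture model of cartilage formation. Every group received DMEM/F-12 with serum, later supplemented with sodium ascorbate, insulin-transferrin-selenium and beta-glycerophosphate, and differed in the treatment: control, acetate or ethanol, with 3 libraries each. The study asks whether acetate, into which ethanol is metabolised, carries effects of ethanol on chondrogenic cells. The doses, the times and what the control cells were given are not given in the sources used here. The labelled treatment protocol speaks of livers and of HepG2 cells and was not used. The labels do not state that replicates came from separate cultures, and the p-values then reflect only the scatter among these libraries, which may be technical.

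Guanylate-binding proteins (GBPs) and immunity-related GTPases (IRGs) are large GTPases that cells make in response to interferon. They gather on the vacuoles of intracellular parasites and bacteria, help to break them open and pass microbial products on to inflammasomes. Among the IRGs, Irgm1, Irgm2 and Igtp (also called Irgm3) are regulators that sit on the cell's own membranes and keep effector IRGs such as Iigp1 (Irga6) inactive there. Interferon-gamma acts through its receptor and the kinases Jak1 and Jak2 on genes with a DNA motif named GAS. Type I interferon acts on genes with a motif named ISRE. In both pathways, factors of the IRF family such as Irf1 also bind ISRE sequences.

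The promoters of the family are shown first, since these motifs are what the family's genes are known to share. RefSeq promoter windows on GRCm38.p6, running from 250 bases before to 50 after each start, were at hand for 9 of the 10 genes, and Iigp1 had no entry. A core of the ISRE, GAAANNGAAA on either strand, was found in 7 of the 9. Of all 32851 promoter windows of this length, 3.44% held it, and so did a window of 3.99% of all 27025 genes. A core of the GAS motif, TTCNNNGAA, which reads the same on both strands, was found in 4 of the 9, in 8.3% of all windows and in 9.55% of all genes. The 2 cores do not share letters where both are marked below. Each stretch below is 70 bases long, lies wholly upstream of the RefSeq start and is written 5′ to 3′ along the gene's strand, with the motif cores in capitals. These stretches are shown because they carry the upstream ISRE cores and any GAS core close to them.
Gbp2, chr3:142620574-142620643, plus strand: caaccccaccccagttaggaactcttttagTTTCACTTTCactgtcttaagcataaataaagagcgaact
Gbp2b, chr3:142594680-142594749, plus strand: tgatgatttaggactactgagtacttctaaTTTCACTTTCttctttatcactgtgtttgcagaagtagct
Gbp3, chr3:142559972-142560041, plus strand: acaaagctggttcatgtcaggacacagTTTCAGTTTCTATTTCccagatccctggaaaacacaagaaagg
Gbp7, chr3:142530226-142530295, plus strand: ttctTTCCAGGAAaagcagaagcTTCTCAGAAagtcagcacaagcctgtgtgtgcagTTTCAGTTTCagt
Irgm1, chr11:48871421-48871490, minus strand: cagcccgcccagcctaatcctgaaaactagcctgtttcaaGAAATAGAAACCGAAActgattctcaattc
Irgm2, chr11:58214877-58214946, plus strand: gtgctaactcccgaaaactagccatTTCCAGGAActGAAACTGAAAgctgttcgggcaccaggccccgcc
Igtp, chr11:58199486-58199555, plus strand: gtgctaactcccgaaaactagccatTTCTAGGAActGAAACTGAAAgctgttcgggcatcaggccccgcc
Tgtp1, chr11:48992290-48992359, minus strand: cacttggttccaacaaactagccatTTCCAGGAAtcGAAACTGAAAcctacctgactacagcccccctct

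The 4 GBP stretches carry the ISRE core on the opposite strand, as TTTC repeats, and the IRG stretches carry it on the gene's own strand. Gbp3 and Irgm1 each hold 2 overlapping ISRE cores. In Irgm2 and Igtp, a GAS core ends 2 bases before an ISRE core, and the 70 bases shown for these 2 genes are identical at 68 positions. The same arrangement, which was looked for after it had been seen here, occurs in 5 of the 32851 windows, 0.0152%, and all 5 belong to IRG genes: Irgm2, Igtp, Tgtp1, Tgtp2 and Gm12185. Tgtp1, an IRG outside the list, is printed for comparison. In Gbp7 the nearer GAS core starts at position -87 and the ISRE core at -53. The Nmi window held neither core, and Ifi35 held only a GAS core, at positions 8 to 16 after the start. Of 7 GBP genes outside the list, only Gbp5 had an entry, and it held both cores. Of 14 further IRG and very large GTPase genes, 8 had an entry, 5 of these held an ISRE core and 4 a GAS core. A match to such letters is a description of the sequence and not a measured binding site.

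**Figure D1:**
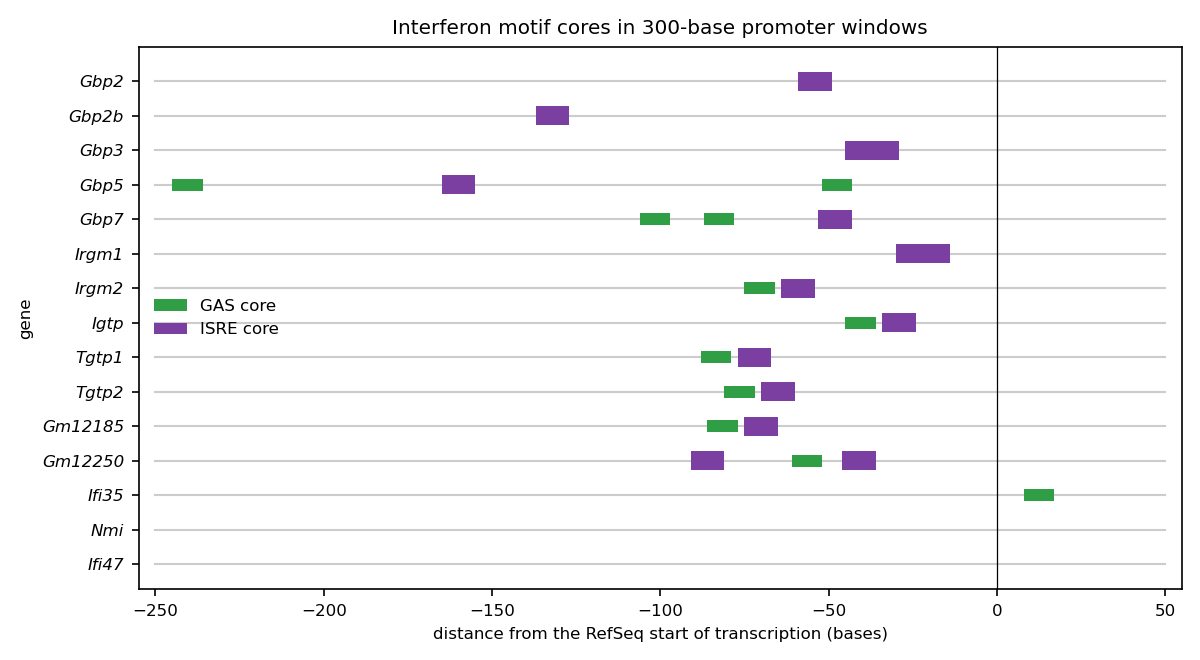
Positions of ISRE cores (tall purple bars) and GAS cores (short green bars) in 300-base promoter windows of the genes described and some of their relatives, in bases from the RefSeq start. Not drawn are Irgq and Gm5431, whose windows held neither core, and Gm1966, whose window held an ISRE core. In Irgm2, Igtp, Tgtp1, Tgtp2 and Gm12185 a GAS core lies 2 bases before an ISRE core, and the Nmi and Ifi47 lines hold neither.

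Across the table, with the 10 genes left out, a rise with ethanol was called for 31 of 372 tested genes whose promoter window held an ISRE core, 8.33%. Among 9834 genes whose window held none, 99 were called higher, 1.01%. For the GAS core the shares were 15 of 820 (1.83%) and 115 of 9386 (1.23%). With acetate, 3 of the 372 genes with an ISRE core were called higher than control, 0.806%, and 41 of the 9834 without, 0.417%. For the GAS core the shares with acetate were 6 of 820 (0.732%) and 38 of 9386 (0.405%). These shares are counts over genes, which are not independent replicates, and they were not tested.

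The libraries held 28.7 to 41.9 M recovered reads, and 1 read was worth 0.0231 to 0.0348 CPM. Markers of cartilage were present, and their summed level was 10200 to 13200 CPM in control, 5310 to 5960 in acetate and 4810 to 6060 in ethanol. In each treated group 6 of 10 fell (adjusted p from limma under 0.05), where 315 of all 12868 tested genes fell with ethanol and 64 with acetate. With only the 6 libraries compared, 9 of the 10 fell with ethanol and 2 with acetate, and with the replicate number as a block 8 and 9. Over all tested genes, 1881 and 17 fell with the 6 libraries, and 653 and 118 with the block. Markers of macrophages and monocytes summed to 4.18 to 6.08 CPM over all libraries with Tyrobp at 0 throughout, those of T and NK cells to at most 0.385 CPM with Cd3e, Nkg7 and Ncr1 at 0, and those of epithelium and hepatocytes to 1.29 to 2.51 CPM. The macrophage sum was 4.38 to 5.63 CPM in control, 4.47 to 6.08 in acetate and 4.18 to 4.62 in ethanol, so it was not higher in the ethanol libraries. The endothelial sum was 4.5 to 5.25 CPM in control, 5.13 to 8.73 in acetate and 6.02 to 6.6 in ethanol. It was higher in every ethanol library than in any control library. None of the 3 endothelial markers tested was called in either treatment against control in the main fit. In 3 other fits 1 of them was called higher with ethanol. These were without acetate replicate 2, with the GC trend removed and with only the 6 libraries compared, where 1309, 1111 and 1562 of all genes were called higher. The part of the cartilage and endothelial marker levels in the results that follow was not tested. In bulk RNA, more cells that express a gene and more RNA per cell cannot be told apart. Acetate replicate 2 stood apart from the other acetate libraries in a way that followed base composition: over 12745 genes, its deviation from their mean correlated with the GC content of the transcript at r = 0.831, as a description. Values without it are given beside the results that it moved most.

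The GBP genes Gbp2, Gbp2b, Gbp3 and Gbp7, which lie in 1 cluster on chromosome 3, had mean levels 1.82 to 2.47 times higher in ethanol than in control, while acetate libraries overlapped with control. On GRCm38 with GENCODE M21 they follow each other on the plus strand as Gbp7 (142530342 to 142550149), Gbp3 (142560026 to 142573209), Gbp2b (142594847 to 142619179) and Gbp2 (142620602 to 142638008). Levels are TMM-scaled CPM, means are given ± SD with n = 3, and fold changes are differences of log2(CPM + 1), with the standard error from limma and the p adjusted over all 12868 genes tested. For Gbp2, a GBP that coats pathogen vacuoles, control libraries had 39.9, 44.5 and 30.9 CPM, acetate libraries 41.8, 47.9 and 35.3, and ethanol libraries 87.1, 99.8 and 76.5. All 3 ethanol libraries lay above all 6 others, and the difference from control was 1.18 ± 0.17 (adjusted p = 0.0078). Acetate differed from control by 0.12 ± 0.17 (adjusted p = 0.71), and from ethanol by -1.06 ± 0.17 (adjusted p = 0.011).

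Gbp2b, the neighbour of Gbp2 that was formerly called mouse Gbp1, had 37.0, 41.5 and 28.2 CPM in control, 40.4, 23.6 and 34.7 in acetate, and 85.8, 95.7 and 81.9 in ethanol. The ethanol libraries again stood clear of the rest, by 1.29 ± 0.21 over control (adjusted p = 0.011). The lowest of all 9 values was acetate replicate 2. Gbp3 had 106, 117 and 76.5 CPM in control, 112, 122 and 91.2 in acetate, and 208, 247 and 205 in ethanol, a difference of 1.15 ± 0.18 between ethanol and control (adjusted p = 0.010). Its acetate libraries overlapped with control (0.13 ± 0.18, adjusted p = 0.70).

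Gbp7, which has been tied to the assembly of the phagocyte oxidase, showed the smallest rise of the 4. Control libraries had 72.7, 81.7 and 60.6 CPM, acetate libraries 80.5, 53.9 and 73.3, and ethanol libraries 123, 143 and 126. The groups did not overlap, and ethanol exceeded control by 0.87 ± 0.17 (adjusted p = 0.027), a call that was lost when any 1 control or ethanol library was left out (adjusted p up to 0.15). Reads of these genes are nearly their own: the share of 50-base windows of the transcript that also occur in another gene was 2.07% for Gbp2, 1.84% for Gbp2b and 4.79% for Gbp3. For Gbp7 it was 12.85%, most of it shared with the gene model Gm43802.

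**Figure D2:**
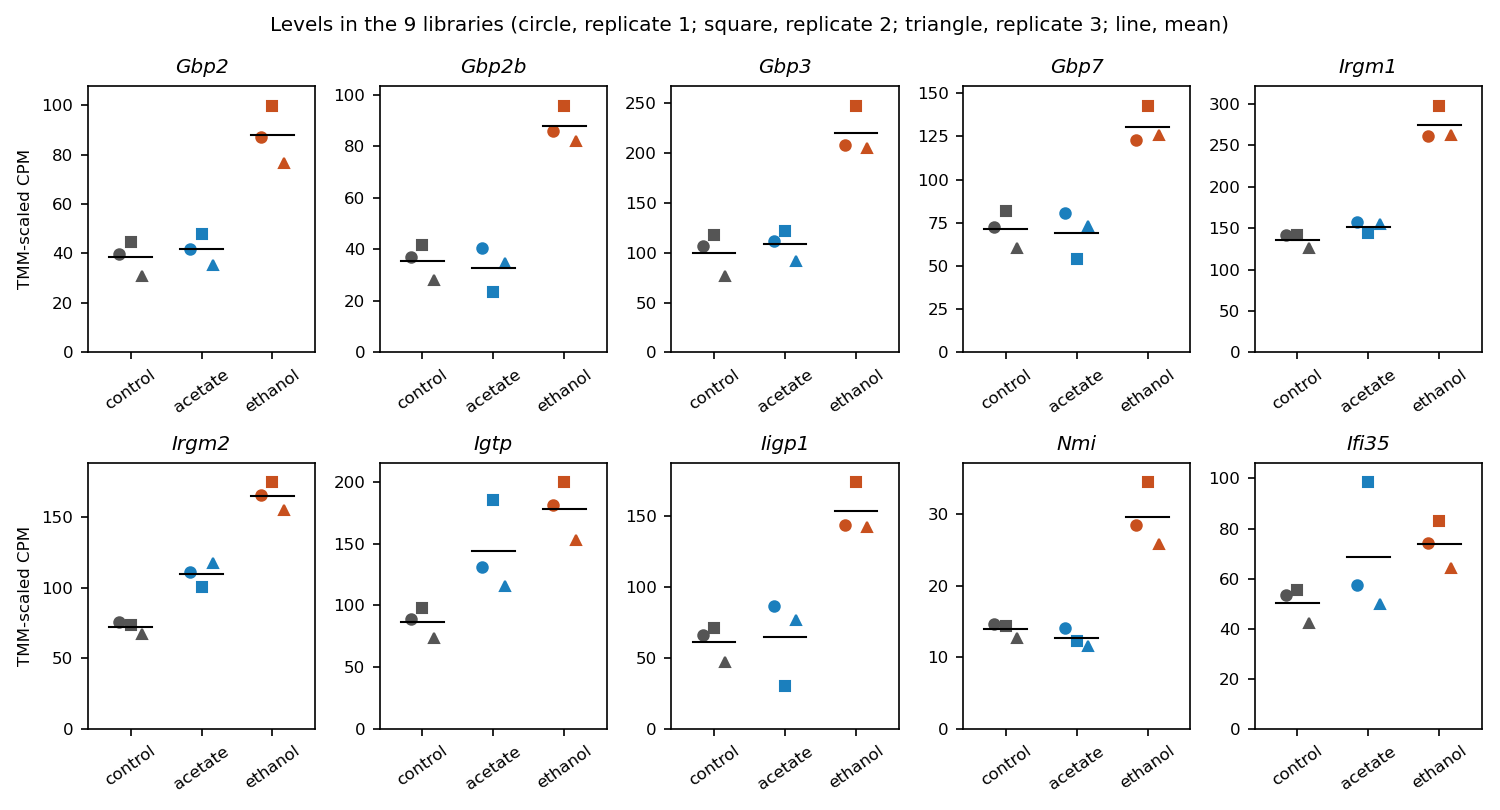
TMM-scaled CPM (linear axes from 0) of the 10 genes in each library, by group, with the group mean as a line. The ethanol libraries lie above all control libraries in each panel, and acetate replicate 2 (blue square) is the highest acetate library for Igtp and Ifi35 and the lowest for Iigp1, Gbp2b and Gbp7.

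All 3 regulatory IRGs rose with ethanol, and Irgm2 was called in acetate as well. Irgm1 (chromosome 11, 48861968 to 48871683, minus strand), whose product protects the cell's own membranes and mitochondria from effector IRGs, had 142, 141 and 126 CPM in control, 157, 144 and 154 in acetate, and 262, 298 and 263 in ethanol. Ethanol exceeded control by 1.00 ± 0.11 (adjusted p = 0.0023). The acetate libraries all lay just above control, and the difference of 0.16 ± 0.11 did not pass (adjusted p = 0.46).

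Irgm2, a regulator found mainly at the Golgi, was the single gene of the 10 called in both treatments. It had 75.9, 73.3 and 67.4 CPM in control, 111, 101 and 118 in acetate, and 166, 175 and 155 in ethanol, so the 3 groups followed each other without overlap. Ethanol exceeded control by 1.18 ± 0.11 (adjusted p = 0.0013), acetate exceeded control by 0.60 ± 0.11 (adjusted p = 0.042), and acetate lay below ethanol by a log2 difference of -0.59 ± 0.11 (adjusted p = 0.019). The call against control in acetate was lost when any 1 library other than acetate replicate 2 was left out (adjusted p up to 0.22). Without acetate replicate 2 it stayed, at 0.66 (adjusted p = 0.0041).

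Igtp, the regulator of the endoplasmic reticulum, had 88.9, 97.6 and 73.3 CPM in control, 131, 186 and 116 in acetate, and 181, 200 and 153 in ethanol. Both treated groups lay wholly above control, and they overlapped with each other. Ethanol exceeded control by 1.03 ± 0.19 (adjusted p = 0.023). Acetate exceeded control by 0.71 ± 0.19, which did not pass in the fit without a block (adjusted p = 0.13) and passed with the replicate number as a block (adjusted p = 0.027). Without acetate replicate 2, its highest acetate library, the difference from control was 0.51 (adjusted p = 0.077), and that from ethanol passed, at -0.51 (adjusted p = 0.047) in place of -0.32 ± 0.19 (adjusted p = 0.34). The ethanol call was lost without any 1 control or ethanol library (adjusted p up to 0.12). Irgm2 (chromosome 11, 58199618 to 58222782, plus strand) and Igtp (58199556 to 58207591) have annotated spans that overlap: an annotated Irgm2 transcript begins in the first exon of Igtp, and 12.32% of the 50-base windows of Igtp also occur in Irgm2. Part of the reads of this pair could have been assigned to either gene.

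Iigp1 (chromosome 18, 60376027 to 60392634, plus strand), the effector IRG of the list, had the largest fitted rise with ethanol and the widest spread. It had 65.9, 71.2 and 47.1 CPM in control, 86.7, 30.0 and 76.9 in acetate, and 144, 174 and 142 in ethanol. Ethanol exceeded every control library, by 1.32 ± 0.35, but the difference did not pass (adjusted p = 0.071). The fit gives each gene 1 variance over all 9 libraries, and acetate replicate 2 lay far below the other acetate libraries here. Leaving it out was not particular to this gene: over the whole table it raised the calls in ethanol against control from 506 to 2766. Without that library the same difference passed (adjusted p = 0.00041), the difference of acetate from ethanol was -0.89 (adjusted p = 0.0082) in place of -1.36 ± 0.35 (adjusted p = 0.067), and acetate differed from control by 0.43 (adjusted p = 0.20) in place of -0.04 ± 0.35 (adjusted p = 0.95). The transcript of Iigp1 had the lowest GC content of the 10, 39.3%.

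Of Nmi and Ifi35, whose products bind each other and modulate STAT and innate immune signalling, Nmi was called with ethanol and Ifi35 was not. Nmi (chromosome 2, 51948487 to 51973494, minus strand) had the lowest CPM of the 10, with 14.7, 14.4 and 12.7 CPM in control, 14.1, 12.2 and 11.6 in acetate, and 28.5, 34.5 and 25.8 in ethanol. The ethanol level of Nmi stood clear of the other groups, by 1.03 ± 0.14 over control (adjusted p = 0.0052), and acetate differed from ethanol by -1.16 ± 0.14 (adjusted p = 0.0036). Ifi35 (chromosome 11, 101448407 to 101458698, plus strand) had 53.3, 55.3 and 42.4 CPM in control, 57.5, 98.5 and 49.7 in acetate, and 74.1, 82.8 and 64.2 in ethanol. Its highest value of all was acetate replicate 2, and ethanol differed from control by 0.54 ± 0.24 (adjusted p = 0.26). Ifi35 has the highest GC content of the 10, 54.1%, and without acetate replicate 2 its ethanol difference of 0.54 passed (adjusted p = 0.013).

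**Figure D3:**
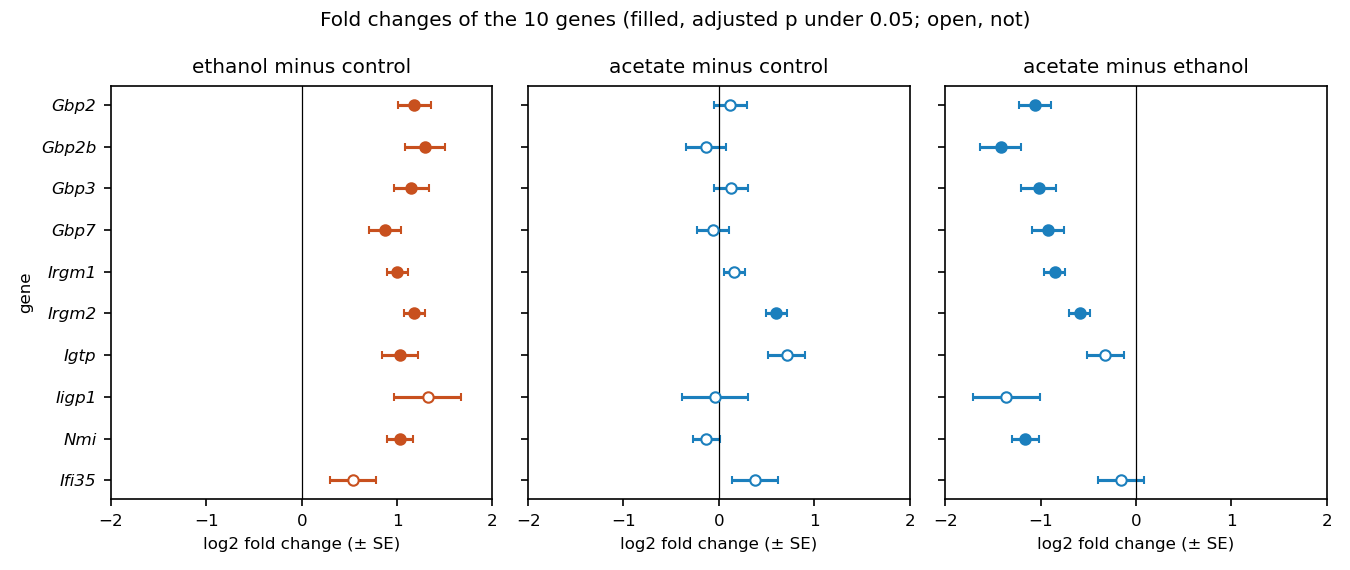
Log2 fold changes of the 10 genes on the scale of log2(CPM + 1), with standard errors from limma, for ethanol minus control, acetate minus control and acetate minus ethanol; filled points have an adjusted p under 0.05. In ethanol minus control 8 points are filled, in acetate minus control 1 (Irgm2), and in acetate minus ethanol 7.

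Counted together, 8 of the 10 genes were called higher in ethanol than in control, and all 10 had 3 ethanol libraries above 3 control libraries. Of all tested genes, 1.48% were called higher, 3.93% were called in either direction and 20.1% did not overlap in this direction. The median log2 difference was 1.09 over the 10 and 0.00 over all tested genes. In all, 191 genes were called higher and 315 lower, a split that became 254 and 230 with total-count scaling. Because the 10 genes were selected on these values, nothing is read from the distance between the shares. Leaving out 1 library brought the count to 4 without control replicate 1, to 3 without ethanol replicate 2 (Irgm1, Irgm2 and Nmi), and to 10 without acetate replicate 2. Over all tested genes the higher calls were 30, 26 and 1309, in the same order. The median fold change stayed between 0.97 and 1.16 in these fits.

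In acetate against control, 1 of the 10 was called higher, where 0.505% of all tested genes were called higher and 1.00% in either direction (65 higher and 64 lower, or 38 and 62 with quantile normalisation). The 3 regulators Irgm1, Irgm2 and Igtp had all acetate libraries above all control libraries, which 11.4% of tested genes also had. The median log2 difference was 0.12, against -0.01 over all tested genes, and the 10 values ran from -0.13 for Gbp2b and Nmi to 0.71 for Igtp. With the replicate number as a block, 2 of the 10 were called, Irgm2 and Igtp, where 175 of all 12868 tested genes were called higher.

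In acetate against ethanol, 7 of the 10 were called lower: the 4 GBPs, Irgm1, Irgm2 and Nmi. The background was 0.886% called lower, 2.84% called higher and 3.73% called either way. In 8 genes all 3 acetate libraries lay below all 3 ethanol libraries, where 12.5% of tested genes did, and Igtp and Ifi35 were the 2 that overlapped. The median log2 difference was -0.97. The comparisons share libraries, so these counts are not separate pieces of evidence. Without ethanol replicates 1, 2 or 3, the count of 7 became 3, 2 or 4, and without acetate replicate 2 it became 9. Over all tested genes the lower calls were 38, 12, 25 and 372, in the same order.

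Acetate replicate 2 touched the 10 genes unequally. On the log2(CPM + 1) scale it lay -1.41 from the mean of the other acetate libraries for Iigp1, -0.65 for Gbp2b and -0.50 for Gbp7, whose GC contents were 39.3%, 43.8% and 41.7%. It lay above that mean by 0.87 for Ifi35 and 0.58 for Igtp, with GC contents of 54.1% and 49.5%. The other 5 genes, between 44.6% and 46.8% GC, deviated by -0.18 to 0.31. Removal of the GC trend from each library gave 9 genes called higher in ethanol than in control, 1 in acetate than in control, and 7 lower in acetate than in ethanol, with Iigp1 in place of Gbp7 among the last. Of the 12745 genes in that fit, 1111, 413 and 668 were called in these directions.

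**Figure D4:**
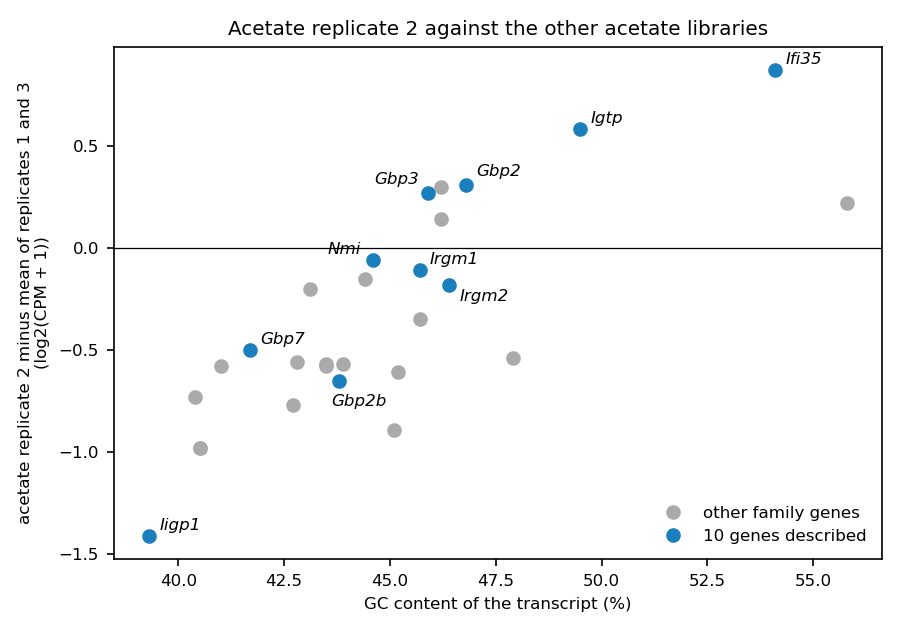
Deviation of acetate replicate 2 from the mean of acetate replicates 1 and 3, on the log2(CPM + 1) scale, against the GC content of the transcript in percent; blue points are the 10 genes and grey points are 18 other tested family genes. Iigp1 at 39.3% GC sits at -1.41 and Ifi35 at 54.1% GC at 0.87.

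Levels can be set side by side between genes only per transcript length, here that of the longest annotated protein-coding transcript. Per kilobase, mean control levels ran from 60.3 CPM for Irgm1 through 42.8 for Igtp, 37.3 for Gbp3, 37.0 for Ifi35, 20.5 for Irgm2 and 19.7 for Iigp1 to 15.3 for Gbp2, 12.8 for Gbp7, 12.6 for Gbp2b and 10.8 for Nmi. In ethanol the same measure ran from 121 for Irgm1 to 22.9 for Nmi. By group means, the regulators Irgm1 and Igtp stood at the top in both groups, though the libraries of Igtp overlapped with those of Gbp3 in each. In ethanol the effector Iigp1 was at 49.1, beside the regulator Irgm2 at 46.8. The length used for Irgm2 was 3528 bases, of a gene annotated from 58199618, while its RefSeq promoter window lies at 58214727 to 58215026. Which Irgm2 transcript these cells made was not tested, so its level per kilobase is uncertain. Neighbours in the control order such as Gbp3 and Ifi35, Irgm2 and Iigp1, or Gbp7 and Gbp2b lay closer together than the spread between libraries. All 10 genes were expressed in control cells, where the lowest value in CPM was 12.7, for Nmi.

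Within control and within ethanol the order of the replicates was alike for the 10 genes. Control replicate 3 was the lowest control library for 10 of 10, where it was the lowest for 27.5% of all tested genes. Ethanol replicate 2 was the highest ethanol library for 10 of 10, against 33.1% of all tested genes. In acetate the order was split: the highest library was replicate 1 for 5 genes, replicate 2 for 4 and replicate 3 for 1, and the lowest was replicate 2 for 5 and replicate 3 for 5. The genes share these libraries, and 10 genes do not count as 10 observations of a condition. Over the 9 libraries, the correlation of each gene with the mean of the other 9 was highest for Irgm1 (r = 0.988), Gbp3 (0.971) and Gbp2 (0.970). It was lowest for Ifi35 (0.519), Igtp (0.733) and Iigp1 (0.825), which are 3 of the 4 genes with the largest deviation in acetate replicate 2. All points share their libraries and groups, and no test was made.

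Outside the list, the genes (mean level 5 CPM or more) whose pattern over the 9 libraries was most like the mean of the 10 were Parp9 (r = 0.990), Dtx3l (0.989), Ifit1 (0.987), Ifih1 (0.986) and Ifit1bl2 (0.983). Parp9 and Dtx3l encode an ADP-ribosyltransferase and its ubiquitin ligase partner. Parp9 had 120, 122 and 102 CPM in control, 131, 108 and 122 in acetate and 203, 232 and 199 in ethanol. Ethanol libraries were clear of both other groups, as for the GBPs of the list. Ifih1 is the RNA sensor Mda5, and Ifit1 binds foreign RNA caps.

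The remaining GBP genes did not all follow the 4 of the list. The table holds 11 GBP genes, 5 in the chromosome 3 cluster (Gbp2, Gbp2b, Gbp3, Gbp5 and Gbp7) and 6 on chromosome 5 (Gbp4, Gbp6, Gbp8, Gbp9, Gbp10 and Gbp11). All 5 on chromosome 3 were called higher with ethanol, by 0.85 to 1.29, but 4 of them were selected on this measure. On chromosome 5, limma called none of 6 (2 had an unadjusted p under 0.05, and voom on the recovered reads also called 0), and the log2 differences ran from -0.94 to 0.72 with a median of 0.06. Gbp5, which promotes inflammasome assembly, had 15.6, 16.3 and 9.45 CPM in control, 18.5, 19.1 and 16.0 in acetate and 24.2, 26.5 and 24.4 in ethanol. Its ethanol libraries stood above all others, and the difference from control of 0.85 ± 0.19 passed (adjusted p = 0.039), though not with quantile normalisation (adjusted p = 0.063) or without any 1 control or ethanol library (adjusted p up to 0.18).

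For Gbp8, ethanol gave the lowest levels. It had 46.4, 49.6 and 39.9 CPM in control, 78.4, 38.8 and 67.8 in acetate and 23.4, 22.4 and 23.5 in ethanol. Every ethanol library lay below every other library. Against control the difference of -0.94 ± 0.23 did not pass (adjusted p = 0.055), passed with the replicate block (adjusted p = 0.049) and passed without acetate replicate 2 (adjusted p = 0.00031). Acetate exceeded ethanol by 1.32 ± 0.23 (adjusted p = 0.014), a call lost without any 1 ethanol library (adjusted p up to 0.077). Gbp10 had 69.6, 118 and 45.7 CPM in control, 178, 131 and 128 in acetate and 51.6, 71.1 and 40.7 in ethanol. Its acetate libraries were the 3 highest, and the excess over ethanol of 1.42 ± 0.33 passed (adjusted p = 0.045), though not with total-count or median-of-ratios scaling (adjusted p = 0.055 and 0.056) or without control replicate 1, acetate replicates 1 or 3, or any 1 ethanol library (adjusted p up to 0.19).

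Acetate libraries were also high for Gbp4, with 130, 151 and 123 CPM in control, 225, 151 and 219 in acetate and 133, 156 and 123 in ethanol, where acetate replicate 2 fell within the other groups. Gbp11 had 10.1, 12.5 and 10.3 CPM in control against 22.3, 14.6 and 21.2 in acetate, and 11.8, 13.2 and 10.4 in ethanol. The log2 differences from control were 0.54 ± 0.17 for Gbp4 and 0.75 ± 0.17 for Gbp11 (adjusted p = 0.20 and 0.083). Without acetate replicate 2 they were 0.72 and 0.93 and passed (adjusted p = 0.01 and 0.0049), as did Gbp8 at 0.68 (adjusted p = 0.01). All 6 chromosome 5 genes had a positive fitted difference between acetate and control, from 0.14 to 0.98, and none passed in the main fit (3 had an unadjusted p under 0.05, and voom called 0). With the GC trend removed and all libraries kept, limma called Gbp4, Gbp11, Gbp8 and Gbp9 higher in acetate (adjusted p = 0.0081, 0.0097, 0.023 and 0.043). Gbp6 and Gbp10 did not pass there (adjusted p = 0.065 and 0.063). Gbp9, with a mean of 253 ± 29.3 CPM in control and 418 ± 46.6 in ethanol, was the single gene of this cluster whose ethanol libraries all exceeded control (0.72 ± 0.21, adjusted p = 0.097). The difference of Gbp9 passed without acetate replicate 2 (adjusted p = 0.0015), with quantile normalisation (adjusted p = 0.046) and after removal of the GC trend (adjusted p = 0.0035). The difference between the 2 clusters was seen in the values and not tested. Gbp6 and Gbp10 share 90.18% and 82.49% of their 50-base windows with other genes, so their values are uncertain, and Gbp11 and Gbp8 share 34.53% and 21.16%.

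**Figure D5:**
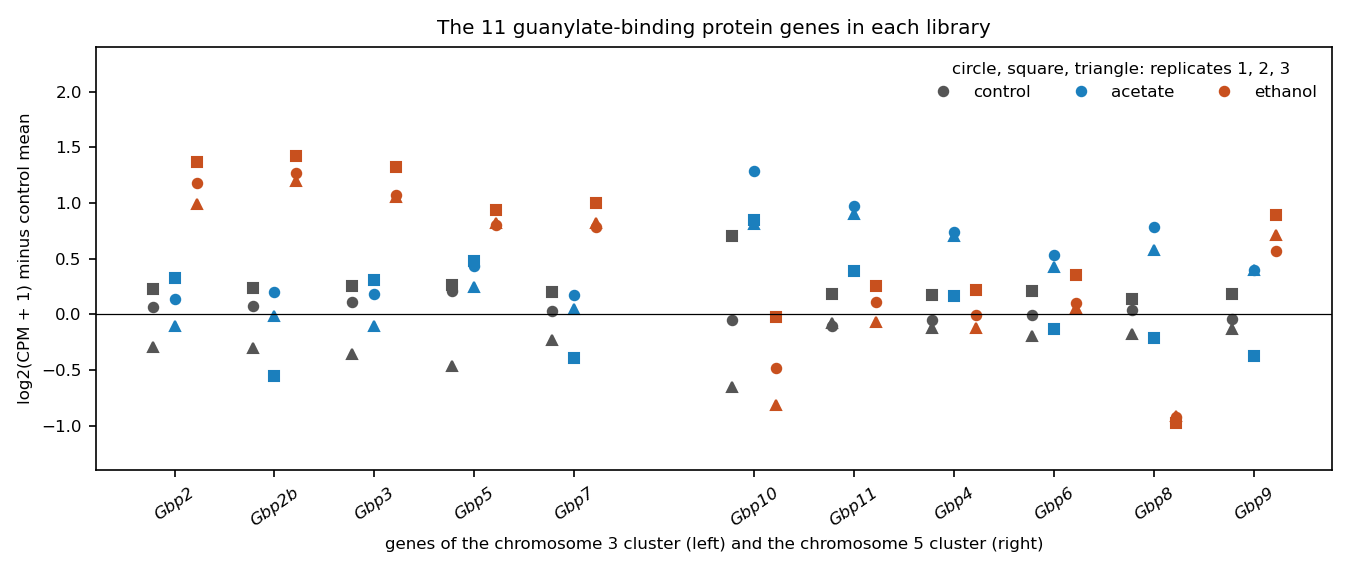
Log2(CPM + 1) of the 11 GBP genes in each library minus the control mean of the gene, with chromosome 3 genes on the left and chromosome 5 genes on the right. Ethanol libraries (orange) lie above all control libraries for the 5 chromosome 3 genes and for Gbp9, and below all of them for Gbp8.

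Several other IRG genes were called with ethanol too. The list besides the 4 holds 14 genes, of which Gvin1, Gm4070 and Gm1966 belong to a related family, the very large inducible GTPases. Of the 14, 13 were in the table and 11 were tested, and 5 were called higher with ethanol and none lower, with a median log2 difference of 0.98 over the 11. Without the very large GTPases the 5 calls stood among 9 tested, with a median of 0.85. Of the 11, 8 were called without acetate replicate 2 and 0 to 2 without any 1 control or ethanol library. Of all 12868 tested genes, 1.48% were called higher with ethanol in the main fit, and 1309 genes were without acetate replicate 2. The share called lower in acetate than in ethanol was 0.886%. Ifi47 (Irgd), an effector-type IRG that shares 3.71% of its windows with another gene, had 24.9, 25.2 and 21.0 CPM in control, 26.7, 19.7 and 24.3 in acetate and 44.2, 46.4 and 38.0 in ethanol. All 3 ethanol libraries of Ifi47 exceeded the rest, by 0.83 ± 0.14 over control (adjusted p = 0.017). Gm12250 rose by 1.16 ± 0.18 (adjusted p = 0.011), F830016B08Rik by 1.11 ± 0.22 at a control mean of only 1.03 CPM (adjusted p = 0.028), and Tgtp1 and Tgtp2 by 1.03 ± 0.21 and 0.98 ± 0.22 (adjusted p = 0.029 and 0.042). Over the alternatives run, the call was lost in 5 of 22 for Ifi47, 2 of 22 for Gm12250, 7 of 21 for F830016B08Rik, 6 of 22 for Tgtp1 and 9 of 22 for Tgtp2. Tgtp1 and Tgtp2 share 89.4% of the windows of Tgtp1 and cannot be separated. In acetate against control limma and voom called none of the 11 (1 had an unadjusted p under 0.05), with a median of 0.06, and in acetate against ethanol 4 were called lower (Ifi47, Tgtp1, Gm4951 and F830016B08Rik), or 0 without ethanol replicates 1 or 2. Gm4951 was not called in ethanol against control (0.85 ± 0.22, adjusted p = 0.070), and was without acetate replicate 2 (adjusted p = 0.0079). Of the rest, Irgq, an atypical family member, differed by 0.20 ± 0.14 with ethanol (adjusted p = 0.50), Gm5431 and Gm12185 by 0.17 and 0.29, and the near-identical pair Gvin1 and Gm4070 by 1.04 each (adjusted p = 0.065 for Gvin1, or 0.0013 without acetate replicate 2). Without that library Gvin1 and Gm4070 were also called in acetate against control, at 0.72 (adjusted p = 0.04), as with the GC trend removed (adjusted p = 0.013). Irgc1 and Gm1966 were below the level tested.

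The interferon ligands themselves were close to absent from these libraries. None of 13 ligands and inducers reached the level tested, and Ifna1, Ifna4, Ifna5, Ifnl2 and Ifnl3 had 0 reads in every library, where a count of 0 allows up to 3 reads, or 0.0692 to 0.104 CPM. Ifng had 3 reads over the control libraries, 1 over acetate and 0 over ethanol. Ifnb1 had 8, 2 and 5 reads in control, 3, 7 and 5 in acetate and 11, 13 and 9 in ethanol. Its ethanol libraries held more reads than any other, in a range too low for the fit. These reads are not scaled for depth. In CPM, ethanol replicate 3 lay below control replicate 1, so the 2 groups overlapped. Protein that came from outside the cells cannot be seen in these counts.

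No receptor or kinase was called in the main fit. Neither limma nor voom called any of 9 in the 3 comparisons (1 had an unadjusted p under 0.05 with ethanol and 2 with acetate against control, and 1 between the treatments), with Ifngr1 at 0.02 ± 0.11 and Ifngr2 at 0.23 ± 0.10 for ethanol against control (adjusted p = 0.96 and 0.27) and a list median of 0.02. Without acetate replicate 2, Ifngr2 was called higher with ethanol (0.23, adjusted p = 0.042) and Ifnar2 lower (-0.29, adjusted p = 0.033), as with only the 6 libraries compared. With the replicate number as a block, Ifnlr1, a subunit of the type III receptor, was called higher in acetate than in ethanol (adjusted p = 0.041). With the GC trend removed, 1 of the 9 was called higher in acetate than in control. Among the tested STAT and IRF factors, those that rose with ethanol included Stat2 by 0.72 ± 0.15, Irf9 by 0.67 ± 0.12 and Nlrc5, an activator of MHC class I genes, by 0.79 ± 0.18 (adjusted p = 0.035, 0.019 and 0.048). Of 22 alternatives, 6 lost the call of Stat2 and 5 that of Irf9 (adjusted p from limma up to 0.17 and 0.12). With 1 library left out, 0 to 7 of the 10 tested factors were called higher with ethanol. Of all 12868 tested genes, 26 to 1309 were called higher in these fits, and 191 in the main fit. Irf9 had 122, 133 and 109 CPM in control, 148, 170 and 142 in acetate and 193, 205 and 182 in ethanol. The 3 groups of Irf9 followed each other without overlap, as for Irgm2, but the difference of 0.33 ± 0.12 in acetate did not pass (adjusted p = 0.25). Irf1 had 68.1, 61.4 and 58.5 CPM in control, 87.2, 125 and 82.1 in acetate and 109, 95.1 and 90.3 in ethanol. Both treated groups lay above control and overlapped with each other, and neither difference passed (0.64 ± 0.17 with ethanol and 0.62 ± 0.17 with acetate, adjusted p = 0.068 and 0.13). Without acetate replicate 2 both passed for Irf1, at 0.64 and 0.43 (adjusted p = 0.0014 and 0.045). In the main fit and in voom, none of the 10 tested factors was called in acetate against control, where 8 had an unadjusted p under 0.05, or in acetate against ethanol, where 2 had. With the GC trend removed, 4 were called higher in acetate than in control and 1 lower in acetate than in ethanol. Of all 12745 genes in that fit, 413 and 668 were called in these directions.

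Targets typical of either interferon were called as well. Of 22 tested type I-typical genes, 11 rose with ethanol and none fell, with a median log2 difference of 0.71. Of all 12868 tested genes, 1.48% were called higher with ethanol. The type I-typical count was 20 without acetate replicate 2, 15 with the replicate block and 5 to 7 without any 1 control or ethanol library. Over all tested genes the higher calls in these fits were 1309, 421 and 26 to 69, so much of the change in count was seen across the table. Among them were Rsad2 (1.72 ± 0.13, adjusted p = 0.00069), Ifit1 (1.43 ± 0.13, adjusted p = 0.0012) and the antiviral dynamin relative Mx2 (1.27 ± 0.18, adjusted p = 0.0069). Of 21 tested genes typical of interferon-gamma, 6 rose and none fell, with a median of 0.53: Cxcl11 by 1.50 ± 0.18, Cxcl10 by 1.30 ± 0.17, Cd274 by 1.28 ± 0.12, Parp14 by 1.14 ± 0.13, Rnf213 by 1.10 ± 0.15 and Cxcl9 by 0.97 ± 0.16. With the replicate block, 10 of these 21 were called higher and 1 lower, and without acetate replicate 2, 12 higher and 1 lower. Cxcl9, the chemokine most tied to interferon-gamma, stayed low, at 0.664 ± 0.217 CPM in control, 0.753 ± 0.125 in acetate and 2.27 ± 0.578 in ethanol. Many of these genes respond to both interferons, and whether a ligand acted was not tested.

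In acetate against control, Mx2 among the type I-typical genes was called (0.95 ± 0.18, adjusted p = 0.047), as were Cxcl10 (0.92 ± 0.17, adjusted p = 0.044) and the MHC class II gene H2-Ab1 (1.32 ± 0.21, adjusted p = 0.027) among the others. Of the alternatives run, 15 of 22 lost that of Mx2, 13 of 22 that of Cxcl10 and 9 of 21 that of H2-Ab1 (adjusted p up to 0.2, 0.19 and 0.14). All 3 were lost when only the 6 libraries compared were fitted, and when any 1 library of control or of ethanol was left out, and voom did not call Mx2 (adjusted p = 0.054). With the replicate block, 3 type I-typical and 4 interferon-gamma-typical genes were called. Of all tested genes, 0.505% were called higher in acetate than in control in the main fit, and 175 of 12868 with the block. In acetate against ethanol, 4 type I-typical genes were called lower (Rsad2, Ifit1, Cmpk2 and Ifih1), 8 with the block, 13 without acetate replicate 2, and 2 without ethanol replicates 1 or 2. Over all tested genes the lower calls in these fits were 114, 222, 372, and 38 or 12. Of the interferon-gamma-typical genes 4 were called lower (Parp14, Cd274, Cxcl9 and Cxcl11), or 8 without acetate replicate 2, while H2-Ab1 was called higher, by 2.14 ± 0.21 (adjusted p = 0.0015). H2-Ab1 was highest in acetate, with 9.43, 13.5 and 6.77 CPM, and lowest in ethanol, with 1.67, 1.35 and 1.18. Gbp8 and Gbp10 had this order in their group means only. Acetate libraries overlapped with control for Gbp8, and ethanol libraries overlapped with control for Gbp10.

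Feedback inhibitors of the pathway included 1 call among 8 tested, Usp18, a brake on the type I receptor, at 0.92 ± 0.20 with ethanol (adjusted p = 0.038). With the block, Socs1 was also called (0.70, adjusted p = 0.045), and without acetate replicate 2, 3 of the 8 were called higher and 1 lower. Over all fits with 1 library left out, 0 to 3 of the 8 were called higher with ethanol. Of all 12868 tested genes, 26 to 1309 were called higher in these fits, and 191 in the main fit. The machinery that the GTPases depend on gave no calls with either treatment against control in the fit to all libraries, by limma or by voom. None of 8 genes for prenylation and its chaperones, which anchor GBPs in membranes, was called (1 had an unadjusted p under 0.05 with ethanol and 0 with acetate), and the median with ethanol was -0.12. None of 16 genes for the autophagy conjugation system that places GBPs and IRGs on vacuoles was called (5 and 0 at an unadjusted p under 0.05), with a median of -0.07 with ethanol. Without acetate replicate 2, Fntb of the first list was called lower with ethanol (-0.33, adjusted p = 0.034), as with the 6 libraries compared and with the GC trend removed, where it was also lower with acetate (-0.32, adjusted p = 0.047), and of the second list Trim56 higher (0.47, adjusted p = 0.013) and Gabarapl1 lower (-0.45, adjusted p = 0.041). With only the 6 libraries compared, 1 of the 16 was called higher and 4 lower. Among 6 tested partners in inflammasome and vacuole killing, Lgals8, a lectin that marks broken vacuoles, rose with ethanol (0.56 ± 0.12, adjusted p = 0.039) and was lower in acetate than in ethanol (-0.56 ± 0.12, adjusted p = 0.038). Rnf213 of this list is counted above too, and with the replicate block, or without acetate replicate 2, 3 of the 6 were called higher and 1 lower. Over all fits with 1 library left out, 1 to 3 of the 6 were called higher with ethanol, and 0 to 3 lower in acetate than in ethanol. Of 12 relatives in the dynamin superfamily, the 2 called with ethanol were Mx1 and Mx2, and the median of the 12 was 0.00.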

How the data were processed

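Messenger RNA of 9 ATDC5 libraries was measured (stranded Illumina mRNA kit, per the labels' protocols). The authors deposited log2 values per gene, which have the form of TMM-scaled CPM with an offset. The submitters' processing notes name STAR 2.7.8a, Bowtie2 2.2.5, Partek and mm10, without role or order. How reads were counted, and on which annotation, is not given in the sources used here. Each library's floor was subtracted to give CPM and recovered reads. Of values from 1 to 20 reads, 85.7% to 87.4% were whole within 0.02 read, so a count test was not the main test.

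The 12868 genes whose mean reached 1 CPM were tested on log2 of CPM plus 1 with limma 3.58.1 in R 4.3.3 over all 9 libraries, with variances trended on the mean and p-values adjusted by Benjamini-Hochberg, and called at an adjusted p under 0.05. The procedure was tested on simulated data. The 10 genes and all gene lists were chosen with earlier results of these data known. Named in the text are the 10 genes, up to 4 called genes of each list per comparison, with remaining calls of short lists and calls made by the block alone added after their values were seen, fixed pathway genes and family genes, and the 5 genes of most alike pattern. A gene of the fixed list is not reported here. Transcripts, positions and GC content came from GENCODE M21 (24919 genes matched by symbol, 423 by synonym, 860 unmatched; GC known for 99.0% of tested genes), and promoters from RefSeq.

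Replicate numbers come from the labels. Deviations from the group means correlated between same-numbered libraries at 0.554, 0.363 and 0.667 for ethanol and control, at 0.15, 0.251 and 0.615 for acetate and ethanol, and at 0.245, -0.101 and 0.408 for acetate and control. These correlations do not establish that the numbers pair the libraries across the 3 groups. The fit with the replicate number as a block was therefore run beside the main one and not in its place. It used 1 model over all 9 libraries, so it also paired acetate with control, where the correlations were lowest. With it, Igtp passed in acetate against control (adjusted p = 0.027), a call that rests on this uncertain pairing. Other alternatives were pseudocounts, filters, scalings, voom on recovered reads, GC trend removal (lowess span 0.3), fits to 6 libraries and each library left out. Gene list counts with each library left out, and the IRG count without the very large GTPases, were chosen after seeing the data.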

Additional observations from a re-analysis of the deposited data

How the results depend on the processing

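Over 22 alternatives, the count of the 10 genes called higher in ethanol than in control was 8 to 10 wherever all control and ethanol libraries were kept, and 3 to 10 when 1 library was left out; no gene of the 10 changed direction in this comparison. Irgm1, Irgm2 and Nmi were called in all 22. In acetate against control the single call became 0 with a filter at a mean of 5 CPM and with only the 6 libraries compared, 2 with the replicate block, 5 with the block and the GC trend removed (Gbp7, Irgm1, Irgm2, Igtp and Iigp1), and 0 to 1 when 1 library was left out. In acetate against ethanol the count of 7 became 10 with the block and the GC trend removed, 5 with only the 6 libraries compared, and 2 to 9 when 1 library was left out. With the block and the GC trend removed, 20.9% of all tested genes were called in acetate against control (1363 higher). In acetate against ethanol 33.8% were (2074 lower). With only the 6 libraries compared, these shares were 0.155% and 0.832%. The block changed no other call of the 10 genes. Over the whole table, 506 genes pass in ethanol against control with all libraries, 98 to 217 without 1 control or ethanol library (98 without control replicate 1 and 109 without ethanol replicate 2), 520 and 518 without acetate replicates 1 and 3, 1074 with the block, 2302 with the GC trend removed, 5048 with both, 3443 with only the 6 libraries, 283 with the filter at 5 CPM and 2766 without acetate replicate 2. In acetate against control 129 genes pass with all libraries and 0 to 2658 over the alternatives, and in acetate against ethanol 480 and 103 to 4313.

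Directions that turned belonged to differences that were small in the main fit, from -0.16 to 0.13. After the turn 2 of them were not small. With the block and the GC trend removed, limma called Gbp7 and Iigp1 higher in acetate than in control (adjusted p = 0.048 and 0.0088). In acetate against control with 1 library left out, Gbp2 ran from -0.03 (without control replicate 3) to 0.23, Gbp2b from -0.29 to 0.09, Gbp3 from -0.05 (without control replicate 3) to 0.25, Gbp7 from -0.18 to 0.11 and Iigp1 from -0.32 to 0.43. Gbp2b was at 0.12 with the GC trend removed, with or without the replicate block, and at 0.09 without acetate replicate 2. Gbp7 was at 0.0026 with total-count scaling, 0.31 with the GC trend removed, with or without the block, 0.04 without control replicate 2 and 0.11 without acetate replicate 2. Iigp1 was at 0.02 with total-count scaling, 0.0044 with quantile normalisation, 0.48 with the GC trend removed, with or without the block, 0.02 and 0.07 without control replicates 1 and 2, and 0.43 without acetate replicate 2. Nmi was at 0.07 with the GC trend removed, with or without the block. In acetate against ethanol, Ifi35 ran from -0.45 to 0.04 (without acetate replicate 3). The causes were not tested, and these refits show only how far the values moved. Reads of genes with shared sequence limit what can be said of Gbp6, Gbp10, Tgtp1 and Tgtp2.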
